A study of Homo sapiens with 6 samples.

Results

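The genes described here are 9 adhesion molecules of lymphocytes: the integrin alpha chains ITGA4, ITGA6 and ITGAL, the beta chains ITGB1, ITGB2 and ITGB7, the ligands CD58 and ICAM1, and the hyaluronan receptor CD44. They were taken by name from 56584 gene symbols in tables of FPKM (fragments per kilobase of transcript, scaled to library size), 1 table for each of 6 RNA sequencing libraries. All 9 had a row in each library. The cells are cultured human B cell lymphoma lines. In LY19Y646F a CMV promoter drives constitutive EZH2-Y646F, and LY19WT is labelled as wild type for EZH2. EZH2 is the methyltransferase of Polycomb repressive complex 2 and marks histone H3 at lysine 27, a mark of silenced genes. Each line has 3 libraries, numbered as replicates, from untreated cells at passages 10 to 15. The labels say neither whether the mutant line is 1 clone nor whether replicates were separate cultures. The p-values therefore cover the spread among the libraries only, which may be technical.

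Integrins are heterodimers of an alpha and a beta chain, and a chain reaches the cell surface only with its partner. The ITGA4 chain pairs with ITGB1 in VLA-4, a receptor for VCAM1 and fibronectin, or with ITGB7 in the receptor for the gut addressin MADCAM1. ITGA6 with ITGB1 binds laminin. ITGAL with ITGB2 forms LFA-1, which binds ICAM1 and its relatives and holds lymphocytes to antigen-presenting and target cells. CD58 on the B cell is the ligand of CD2 on T and NK cells, and loss of CD58 is a known route of immune escape in B cell lymphoma.

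Total FPKM per library lay between 806102 and 1020940, and the reads of each library are not known. The 10 highest rows held 27.5% of that total in LY19WT replicate 3 and 5.71% to 9.38% in the other libraries. EZH2 stood at 70.2, 80.4 and 93.5 FPKM in LY19Y646F and at 60.6, 76.5 and 74.7 FPKM in LY19WT. The tables do not separate mutant from native transcripts. Of 8 B cell markers, 6 had a value in every library, with rows shared between genes counted. They summed to 565 to 905 FPKM in LY19Y646F and 311 to 472 FPKM in LY19WT. MS4A1 and CD22 did not have a row free of other protein-coding genes in every library. The rows naming MS4A1, the gene of CD20, had 83.1 to 118 FPKM in LY19Y646F and only 0.0688 to 0.140 FPKM in LY19WT. The 6 T cell markers summed to 1.25 to 1.64 FPKM in LY19Y646F, mostly CD3E, and to 0.00954 to 0.0698 FPKM in LY19WT, where CD3D, CD3E and CD3G were at 0. The 5 myeloid markers summed to 0.285 to 0.653 FPKM in LY19Y646F and 11.4 to 13.9 FPKM in LY19WT, mostly LYZ. Sums for NK, endothelial, fibroblast and epithelial markers stayed at or below 1.13 FPKM in each library. The part of these markers in the results below was not tested.

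The value of a gene depends on the row that carries it. Row boundaries differ between the libraries' tables, and a row can name several genes. Of the 54 rows of the 9 genes, 8 were merged with another name. CD58 shared its row with the noncoding RP5-1086K13.1 in the 3 LY19WT libraries and stood alone in the 3 LY19Y646F libraries. ITGB2 shared its row with the noncoding LL21NC02-1C16.1 in LY19Y646F replicate 1 and in each LY19WT library. ICAM1 shared its row with another protein-coding gene, ICAM4, in LY19Y646F replicate 3, and was therefore left out of the test. Another 9 rows gave exactly 0 FPKM, all in LY19Y646F. Between 38 and 73 protein-coding genes per library were at 0 while both other libraries of the line had at least 10 FPKM, so these genes are called listed at 0 here, not absent.

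Among the alpha chains, ITGA4 fell in LY19Y646F, ITGAL rose, and ITGA6 was listed at 0. ITGA4 (hg19 chromosome 2, 182321929 to 182403971 in LY19Y646F replicate 2) measured 14.1, 20.8 and 22.2 FPKM in LY19Y646F, against 103, 133 and 154 FPKM in LY19WT. Each LY19WT library was thus well above each LY19Y646F library. Named neighbours overlapped ITGA4 with up to 10.5 FPKM in LY19Y646F replicate 1. The means were 19.0 ± 4.36 FPKM in LY19Y646F and 130.2 ± 25.5 FPKM in LY19WT (SD, n = 3 each), 6.84-fold lower in LY19Y646F. On the log2(FPKM + 1) scale ITGA4 fell by 2.72 (SE 0.23, limma adjusted p = 0.000695). In such bulk RNA, fewer expressing cells and less RNA per cell cannot be told apart.

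ITGAL (hg19 chromosome 16, 30483979 to 30534506) measured 8.40, 19.0 and 7.84 FPKM in LY19Y646F, against 0.0237, 0.0681 and 0.120 FPKM in LY19WT. The confidence interval in the authors' files reached down to 0 in each LY19WT library and not below 7.13 FPKM in any LY19Y646F library. The means were 11.8 ± 6.30 FPKM in LY19Y646F and 0.0706 ± 0.0481 FPKM in LY19WT (SD, n = 3 each). Unnamed rows over ITGAL carried 0.775 FPKM in LY19WT replicate 2 and 2.80 FPKM in LY19WT replicate 3. ITGAL rose by 3.47 on the log2(FPKM + 1) scale (SE 0.35, limma adjusted p = 0.00123), and by 6.04 with 0.1 FPKM added in place of 1. ITGA6 (hg19 chromosome 2, 173292082 to 173371181) was listed at 0 in all LY19Y646F libraries but measured 3.54, 6.46 and 3.74 FPKM in LY19WT. Its limma adjusted p was 0.000938, and no fold is given against zeros. Unnamed rows inside the ITGA6 span reached 0.639 to 0.701 FPKM in the LY19Y646F libraries and 0.703 to 1.16 FPKM in the LY19WT libraries.

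**Figure D1:**
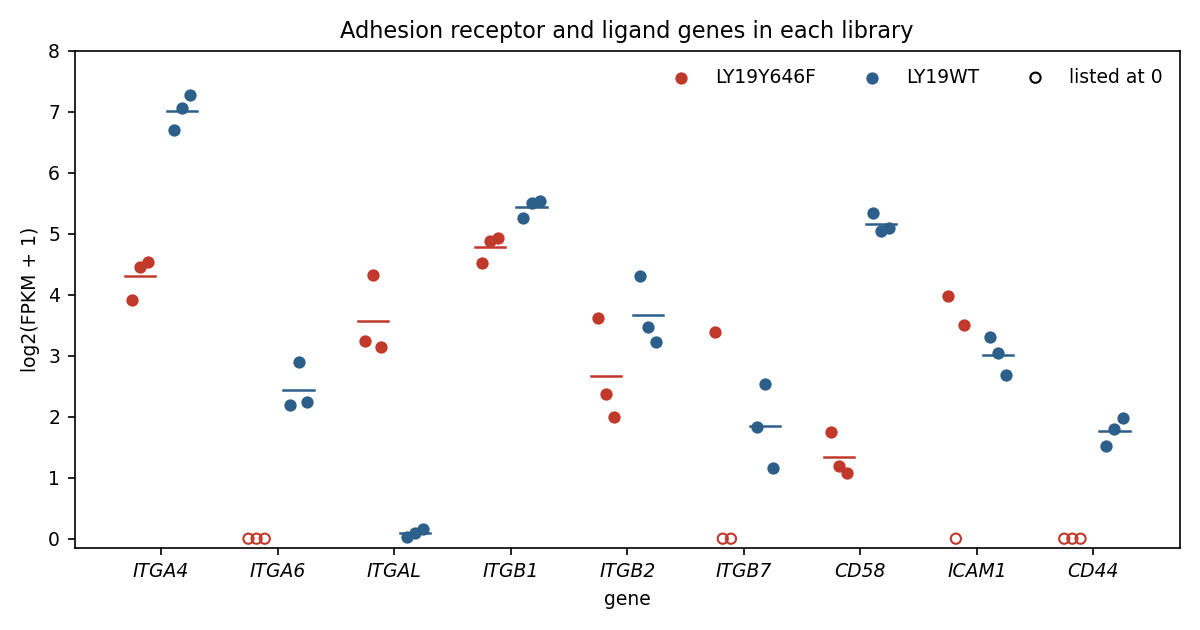
Level of each gene as log2(FPKM + 1) in each library, with LY19Y646F in red left of LY19WT in blue; bars are means of 3 libraries and are left out where a library is listed at 0 (open circles). ITGA4, ITGA6, ITGB1, CD58 and CD44 sit lower in LY19Y646F and ITGAL higher with no overlap, while ITGB2, ITGB7 and ICAM1 overlap; the lower filled LY19Y646F point of ICAM1 includes ICAM4.

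Of the beta chains, ITGB1 fell in LY19Y646F, while ITGB2 and ITGB7 did not pass. ITGB1 (hg19 chromosome 10, 33189247 to 33294720), the partner of ITGA4 and ITGA6, measured 21.9, 28.5 and 29.7 FPKM in LY19Y646F, against 37.3, 44.2 and 45.5 FPKM in LY19WT. The lines did not overlap, with means of 26.7 ± 4.22 FPKM in LY19Y646F and 42.4 ± 4.42 FPKM in LY19WT (SD, n = 3 each). ITGB1 fell by 0.65 on the log2(FPKM + 1) scale (SE 0.16, limma adjusted p = 0.0277), the smallest change called among the 9 genes. The call was lost without LY19Y646F replicate 2 (limma adjusted p = 0.064), without LY19WT replicate 2 (0.094) and without LY19WT replicate 3 (0.092).

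ITGB2 (hg19 chromosome 21, 46305868 to 46351904), the partner of ITGAL, measured 11.3, 4.18 and 2.97 FPKM in LY19Y646F, against 18.7, 10.1 and 8.32 FPKM in LY19WT. Replicate 1 was the highest library in each line, and the lines overlapped. The means were 6.14 ± 4.47 FPKM in LY19Y646F and 12.4 ± 5.57 FPKM in LY19WT (SD, n = 3 each), with a log2 difference of -1.005 (SE 0.52, limma adjusted p = 0.204). ITGB2 passed without LY19Y646F replicate 1 (log2 difference -1.48, limma adjusted p = 0.046) and with libraries weighted (-1.12, adjusted p = 0.015). Without LY19Y646F replicate 1, only the LY19WT rows of ITGB2 were merged with LL21NC02-1C16.1. The part of this merging in that call was not tested.

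ITGB7 (hg19 chromosome 12, 53585102 to 53601091) measured 9.53, 0 and 0 FPKM in LY19Y646F, against 2.55, 4.81 and 1.24 FPKM in LY19WT. The only LY19Y646F library with a value was thus higher than each LY19WT library. Taken as values, the zeros gave a log2 difference of -0.71 (SE 1.04, limma adjusted p = 0.64), and taken as missing they gave 1.55 (SE 0.60, adjusted p = 0.13), a fit with 1 library of LY19Y646F. Without LY19Y646F replicate 1, which leaves that line only its zeros, ITGB7 passed as lower (-1.84, limma adjusted p = 0.038), as it did with libraries weighted (-1.97, adjusted p = 0.032). The authors' deposited table gives ITGB7 18.3 FPKM in LY19Y646F and 3.13 FPKM in LY19WT, a log2 fold change of 2.55. The direction of ITGB7 in the library tables depends on how the zeros are taken.

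Of the 9 genes, 8 were tested, and 6 passed at an adjusted p under 0.05, 1 higher and 5 lower in LY19Y646F. Among all 10710 tested genes 33.3% passed, 16.8% higher and 16.5% lower. The level for testing was a mean of 0.5 FPKM over the 6 libraries, and ITGA6, ITGAL and CD44 reached it through 1 line alone. The counts are therefore a description. The lines did not overlap in 6 of the 9 genes, where 48.6% of all tested genes did not overlap. Each of these 6 had an exact two-sided permutation p of 0.10, the smallest that 3 libraries against 3 can give.

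Set side by side, the ratios of ITGA4 to ITGB1 and of ITGAL to ITGB2 did not overlap between the lines. FPKM is scaled to length, so chains can be compared within a library. ITGA4 exceeded ITGB1 in each LY19WT library and was below it in each LY19Y646F library. The log2 ratio of ITGA4 to ITGB1, with 1 FPKM added to each, was -0.60, -0.44 and -0.40 in LY19Y646F, against 1.45, 1.57 and 1.74 in LY19WT. The mean ratio was 2.06 lower in LY19Y646F, at -0.48 ± 0.11 against 1.58 ± 0.15 (SD, n = 3 each). The ratio of ITGAL to ITGB2 was -0.38, 1.95 and 1.15 in LY19Y646F, against -4.27, -3.38 and -3.06 in LY19WT. ITGB2 RNA was thus far above ITGAL RNA in LY19WT, while in LY19Y646F the chains were closer, with a mean ratio of 0.91 ± 1.19 against -3.57 ± 0.63 in LY19WT (SD, n = 3 each). The ITGB2 row was merged with a noncoding name in each LY19WT library. In LY19Y646F it was merged in replicate 1 only, the library with the ratio of -0.38. The part of this merging in the ratios was not tested. Each difference had an exact two-sided permutation p of 0.10 and 0.16 adjusted over the 8 pairs compared. The ITGAL to ITGB2 difference was 4.47, and 7.18 with 0.1 FPKM added in place of 1. The other 6 pairs hold a gene listed at 0 in at least 1 library.

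**Figure D2:**
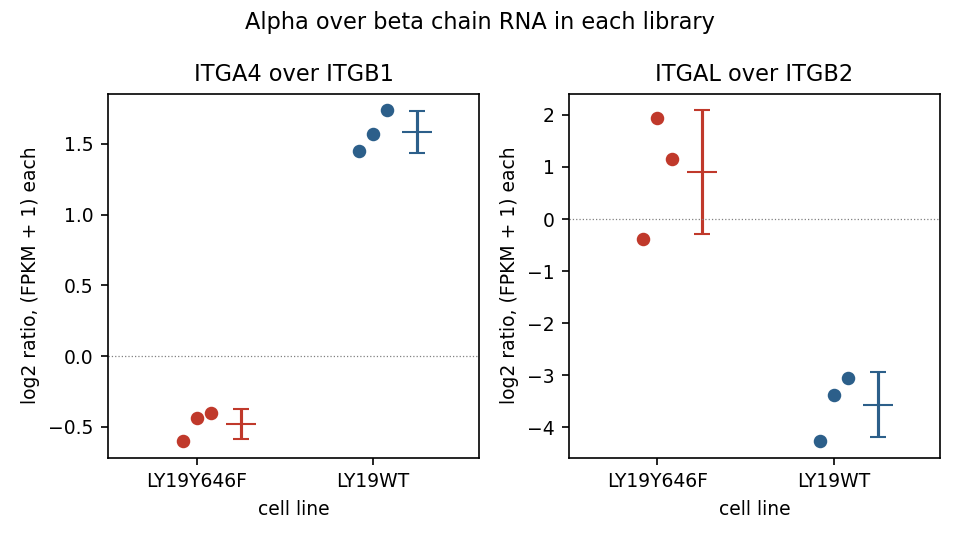
Log2 ratio of alpha to beta chain FPKM (1 added to each) by library for ITGA4 over ITGB1 and ITGAL over ITGB2, LY19Y646F left of LY19WT; the line with bars is the mean ± SD of 3 libraries. ITGA4 over ITGB1 is below 0 in LY19Y646F and above 0 in LY19WT, and ITGAL over ITGB2 lies between -0.38 and 1.95 in LY19Y646F, above the highest LY19WT value of -3.06. The ITGB2 value includes a noncoding name in each LY19WT library and in LY19Y646F replicate 1.

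Of the 9 genes, CD58 showed the largest fall among those with a value in each library. CD58 (hg19 chromosome 1, 117057157 to 117113661 in LY19Y646F) measured 2.38, 1.29 and 1.11 FPKM in LY19Y646F, against 39.3, 31.9 and 33.2 FPKM in LY19WT. The lines were far apart, with means of 1.59 ± 0.685 FPKM in LY19Y646F and 34.8 ± 3.99 FPKM in LY19WT (SD, n = 3 each), 21.8-fold lower in LY19Y646F. CD58 fell by 3.81 on the log2(FPKM + 1) scale (SE 0.22, limma adjusted p = 0.000158). The LY19WT rows also carry the noncoding neighbour RP5-1086K13.1, which had its own row in LY19Y646F at 0.0732, 0.0236 and 0.0430 FPKM. The authors' deposited table separates them: CD58 has 1.16 FPKM in LY19Y646F and 46.4 FPKM in LY19WT. For the neighbour alone the authors' deposited table has 0.0462 FPKM in LY19Y646F and 3.41 FPKM in LY19WT. No unnamed row overlapped CD58 in LY19Y646F. In LY19WT 9 unnamed rows overlapped it in replicate 1, the highest with 190.5 FPKM over a short stretch (117058961 to 117059065), and 1 in each of replicates 2 and 3, with 3.70 and 3.23 FPKM. Their part in the CD58 values was not tested.

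CD44 (hg19 chromosome 11, 35160417 to 35253949), the receptor that anchors lymphocytes to hyaluronan, was listed at 0 in all LY19Y646F libraries but measured 1.87, 2.48 and 2.95 FPKM in LY19WT. The LY19WT level was low, and the limma adjusted p of 0.000894 rests on the zeros. No other row with a value overlapped the CD44 span in any library.

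ICAM1 (hg19 chromosome 19, 10381511 to 10397291), the ligand of LFA-1 and a classical target of NF-kB, measured 14.8, 0 and 10.3 FPKM in LY19Y646F, against 8.92, 7.21 and 5.46 FPKM in LY19WT. Both LY19Y646F libraries with a value were above each LY19WT library, but the value of replicate 3 includes ICAM4. With the merged row counted and the zero kept, the log2 difference was -0.52 (SE 1.1, limma adjusted p = 0.77). With the zero as missing it was 0.73 (SE 0.28, adjusted p = 0.13). In LY19Y646F replicate 2 the neighbouring MRPL4, a mitochondrial ribosomal protein gene, was also listed at 0, against 204 and 12.7 FPKM in the other libraries of that line. An unnamed row with 12.1 FPKM, from 10280117 to 10452830, spans ICAM1 in that library.

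The starts of ITGA4, CD58 and CD44, among the 5 genes called lower, and of ICAM1, a known target of NF-kB, are shown. ITGA6 and ITGB1, also called lower, are not printed, and the CpG counts of their starts follow below. Sequences are the 250 bases before the start in RefSeq, build GRCh38.p14, 5′ to 3′ on the gene's strand, with CpG in capitals for ITGA4 (chr2:181457136-181457385, plus strand), CD58 (chr1:116571027-116571276, minus strand) and CD44 (chr11:35138921-35139170, plus strand) and the letters GGAAATTCC in capitals for ICAM1 (chr19:10270870-10271119, plus strand).
ITGA4: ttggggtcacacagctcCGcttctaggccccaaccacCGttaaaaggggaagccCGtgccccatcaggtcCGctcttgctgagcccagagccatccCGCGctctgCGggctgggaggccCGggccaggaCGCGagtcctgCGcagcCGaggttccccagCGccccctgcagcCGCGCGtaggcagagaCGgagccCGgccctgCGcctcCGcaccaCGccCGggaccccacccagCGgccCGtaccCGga
CD58: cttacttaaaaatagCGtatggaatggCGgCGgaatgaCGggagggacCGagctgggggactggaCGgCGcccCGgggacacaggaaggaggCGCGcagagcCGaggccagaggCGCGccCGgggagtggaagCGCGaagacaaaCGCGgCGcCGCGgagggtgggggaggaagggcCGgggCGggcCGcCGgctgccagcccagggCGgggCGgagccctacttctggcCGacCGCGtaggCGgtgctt
CD44: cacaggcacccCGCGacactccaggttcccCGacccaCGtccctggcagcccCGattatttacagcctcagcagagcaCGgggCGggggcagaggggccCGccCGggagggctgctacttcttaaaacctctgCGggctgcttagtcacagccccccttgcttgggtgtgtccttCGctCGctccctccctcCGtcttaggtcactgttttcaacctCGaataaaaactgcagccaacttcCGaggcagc
ICAM1: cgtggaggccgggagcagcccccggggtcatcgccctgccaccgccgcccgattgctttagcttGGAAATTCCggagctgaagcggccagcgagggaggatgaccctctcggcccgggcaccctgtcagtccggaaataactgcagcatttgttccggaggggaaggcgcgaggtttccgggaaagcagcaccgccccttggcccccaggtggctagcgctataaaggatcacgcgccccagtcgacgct

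Entries were found for 7 of the 9 genes, and not for ITGAL and ITGB2. The windows hold 25 CpG in ITGA4, 31 in CD58, 15 in CD44 and 23 in ICAM1, against a median of 11 over 35116 windows of this length, with quartiles of 3 and 23. ITGB7 holds 2 CpG. ITGB1 and ITGA6 each have 2 starts, with 32 and 4 CpG for ITGB1 and 8 and 30 CpG for ITGA6. The NF-kB letters GGAAATTCC, searched on both strands, were in the window of ICAM1 and of no other gene among the 7, and 0.413% of all windows hold them. These counts describe the sequence and show no binding.

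By name, 4 of the 9 genes are in the authors' deposited table of the comparison made with Cuffdiff. In that table ITGA4 has 28.2 FPKM in LY19Y646F and 169 FPKM in LY19WT, with a log2 fold change of -2.58. ITGA6 has 0.587 FPKM in LY19Y646F and 6.99 FPKM in LY19WT in the authors' deposited table, so a low level stands where the libraries list 0. For CD58 the log2 fold change in the authors' deposited table is -5.32, with no 1 added to the FPKM. Rows that cover ITGAL, ITGB1, ITGB2, ICAM1 and CD44 in the authors' deposited table carry the names of neighbours only, such as SEPHS2 over ITGAL and MRPL4 over ICAM1, and give no value for the gene itself.

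**Figure D3:**
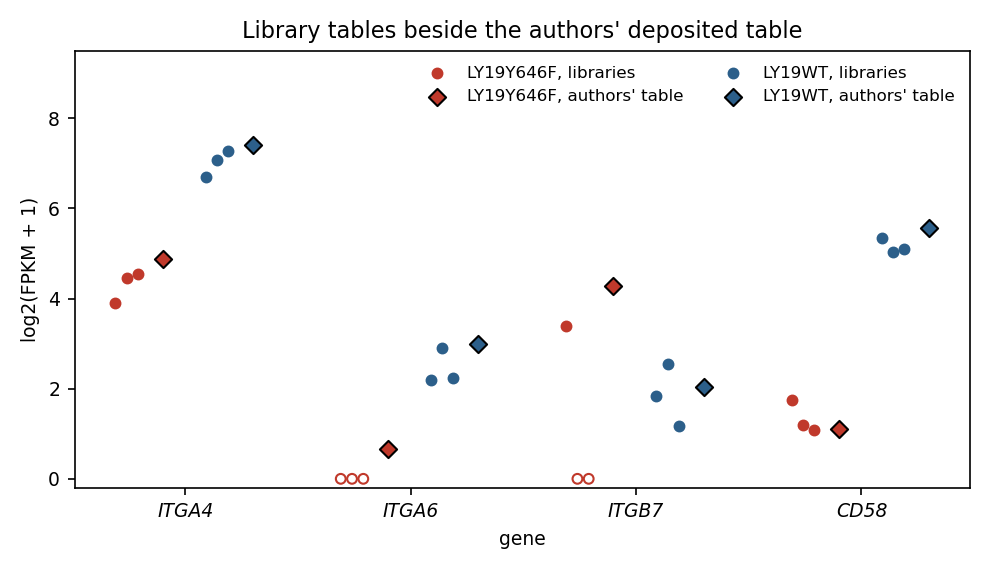
Level as log2(FPKM + 1) of the 4 genes held by both kinds of file, LY19Y646F (red) left of LY19WT (blue); circles are single libraries, open where listed at 0, and diamonds are the values of the authors' deposited table. ITGA4, ITGA6 and CD58 are lower in LY19Y646F in both, and ITGB7 is higher in LY19Y646F in the authors' table, at 18.3 against 3.13 FPKM, where 2 of its LY19Y646F libraries are listed at 0.

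Within LY19Y646F, ITGB1 and ITGA4 had the highest levels, at 26.7 and 19.0 FPKM, and their ranges overlapped, as did those of ITGA4 and ITGAL. CD58, at 1.59 FPKM, was the lowest gene with a value in each LY19Y646F library. Within LY19WT, ITGA4 at 130.2 FPKM stood above all others with no overlap. ITGB1 and CD58 followed at 42.4 and 34.8 FPKM, with overlapping ranges, and ITGB2, ICAM1, ITGA6, ITGB7 and CD44 lay between 12.4 and 2.44 FPKM, each overlapping the next. ITGAL was the lowest in LY19WT.

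Other chains and ligands of the same system were taken from lists drawn from general knowledge. Their counts stand beside the 33.3% of all tested genes that passed, 16.8% higher and 16.5% lower. Of 15 other alpha chains 4 were tested, and 2 rose and 1 fell. ITGAV, a chain of vitronectin and fibronectin receptors, fell to 1.52 ± 0.629 FPKM in LY19Y646F, against 4.62 ± 0.903 FPKM in LY19WT (SD, n = 3 each; limma adjusted p = 0.0141). ITGA10, a collagen receptor chain, rose to 0.915 ± 0.248 FPKM in LY19Y646F, against 0.171 ± 0.0336 FPKM in LY19WT (limma adjusted p = 0.0193). ITGAV lost its call without LY19Y646F replicate 3 (adjusted p = 0.051) or LY19WT replicate 2 (0.052), and ITGA10 without LY19WT replicate 2 (0.061) or 3 (0.059). Without LY19Y646F replicate 1 or 3, ITGA10 was below the level for testing. ITGA3, a laminin receptor chain, measured 2.07, 0.693 and 3.99 FPKM in LY19Y646F, against 0.0289, 0.0499 and 0 FPKM in LY19WT (limma adjusted p = 0.0379). Its call was lost without any library other than LY19Y646F replicate 2, with adjusted p-values up to 0.10.

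ITGAE, which pairs with ITGB7 and binds E-cadherin, had 32.8 ± 2.53 FPKM in LY19Y646F, against 28.2 ± 4.33 FPKM in LY19WT (SD, n = 3 each) and did not pass (limma adjusted p = 0.324). ITGA5, ITGAM and ITGAX, which pair with ITGB1 or ITGB2, stayed at or below 0.359 FPKM in each library. None of 5 other beta chains was tested, and ITGB3, in merged rows, measured 0.610, 0.940 and 0 FPKM in LY19Y646F, against 2.52, 2.51 and 4.39 FPKM in LY19WT.

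Ligands other than CD58 and ICAM1 gave 4 tested genes of 24, of which 2 rose and 1 fell. ICAM2, another ligand of LFA-1, measured 33.3, 17.5 and 15.9 FPKM in LY19Y646F, against 5.00, 1.79 and 2.10 FPKM in LY19WT. It rose by 2.56 on the log2(FPKM + 1) scale (SE 0.42, limma adjusted p = 0.00719). CD48, a relative of CD58 that binds the receptor CD244, rose to 90.4 ± 12.8 FPKM in LY19Y646F, against 23.1 ± 1.29 FPKM in LY19WT (SD, n = 3 each; limma adjusted p = 0.000314). CD48 and CD58 thus changed in opposite directions. LAMC1, a laminin chain, fell to 0.910 ± 0.159 FPKM in LY19Y646F, against 8.68 ± 1.40 FPKM in LY19WT (limma adjusted p = 0.000306).

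ICAM3 shared rows with other genes and measured 0, 13.95 and 13.14 FPKM in LY19Y646F, against 102, 6.44 and 25.8 FPKM in LY19WT. VCAM1, MADCAM1 and CD2, the counterparts of VLA-4, of the ITGB7 integrin and of CD58, stayed at or below 0.166 FPKM in each library. FN1, which encodes fibronectin, was listed at 0 in all LY19Y646F libraries but measured 0.505, 0.438 and 1.05 FPKM in LY19WT. The authors' deposited table has FN1 the other way round, at 1.51 FPKM in LY19Y646F and 0.561 FPKM in LY19WT.

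Genes that regulate integrin activation, inhibitors included, gave 14 tested genes of 22, of which 5 fell and 1 rose. Among all tested genes 16.5% were called lower and 16.8% higher. RASSF5, the RAP1 effector that binds the ITGAL tail, fell to 13.4 ± 0.665 FPKM in LY19Y646F, against 32.9 ± 3.44 FPKM in LY19WT (SD, n = 3 each; limma adjusted p = 0.000956). APBB1IP, which links RAP1 to talin, fell to 30.9 ± 5.38 FPKM in LY19Y646F, against 69.6 ± 4.78 FPKM in LY19WT (limma adjusted p = 0.00289). SKAP2, an adaptor of leukocyte adhesion, fell to 5.04 ± 0.290 FPKM in LY19Y646F, against 36.6 ± 3.28 FPKM in LY19WT (limma adjusted p = 6.13e-05). FERMT1, a kindlin, measured 0.0112, 0 and 0 FPKM in LY19Y646F, against 6.15, 6.91 and 7.34 FPKM in LY19WT (limma adjusted p = 5.80e-05). TLN1, which encodes talin, the common integrin activator, had 27.6 ± 15.4 FPKM in LY19Y646F, against 43.4 ± 17.3 FPKM in LY19WT and did not pass (limma adjusted p = 0.303, and 0.026 with libraries weighted). FERMT3, the kindlin of blood cells, was in merged rows with 62.2, 0 and 16.7 FPKM in LY19Y646F, against 112, 40.0 and 36.6 FPKM in LY19WT, and was not tested.

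Of 24 cytoskeletal linkers and adhesion kinases 19 were tested, and 6 rose and 5 fell. LPXN, leupaxin, a focal adhesion protein of blood cells, rose to 96.2 ± 11.02 FPKM in LY19Y646F, against 13.9 ± 0.573 FPKM in LY19WT (SD, n = 3 each; limma adjusted p = 6.12e-05). PTK2, the focal adhesion kinase, rose to 39.1 ± 3.87 FPKM in LY19Y646F, against 9.41 ± 0.603 FPKM in LY19WT (limma adjusted p = 0.000196). ACTN1, alpha-actinin, fell to 0.155 ± 0.208 FPKM in LY19Y646F, against 21.7 ± 1.13 FPKM in LY19WT (limma adjusted p = 4.77e-05). TES, testin, was listed at 0 in all LY19Y646F libraries but measured 8.03, 9.34 and 8.85 FPKM in LY19WT (limma adjusted p = 4.06e-05). Of 18 selectins and other adhesion receptors 5 were tested, and 1 rose and 2 fell. CD99 rose to 72.7 ± 25.1 FPKM in LY19Y646F, against 15.6 ± 1.68 FPKM in LY19WT (limma adjusted p = 0.00344). CD47, the signal that restrains phagocytosis, fell to 39.8 ± 2.97 FPKM in LY19Y646F, against 63.6 ± 7.64 FPKM in LY19WT (limma adjusted p = 0.0118).

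Over all lists 26 of 46 tested genes passed, 12 higher and 14 lower, beside the 33.3% of all tested genes given above. Of the named list genes, ITGA3, ITGA10, FERMT1, ACTN1 and TES reached the level for testing only through the line where they were higher. The list counts are therefore a description. The median log2 difference was -0.11 over the lists and -0.03 over all tested genes.

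**Figure D4:**
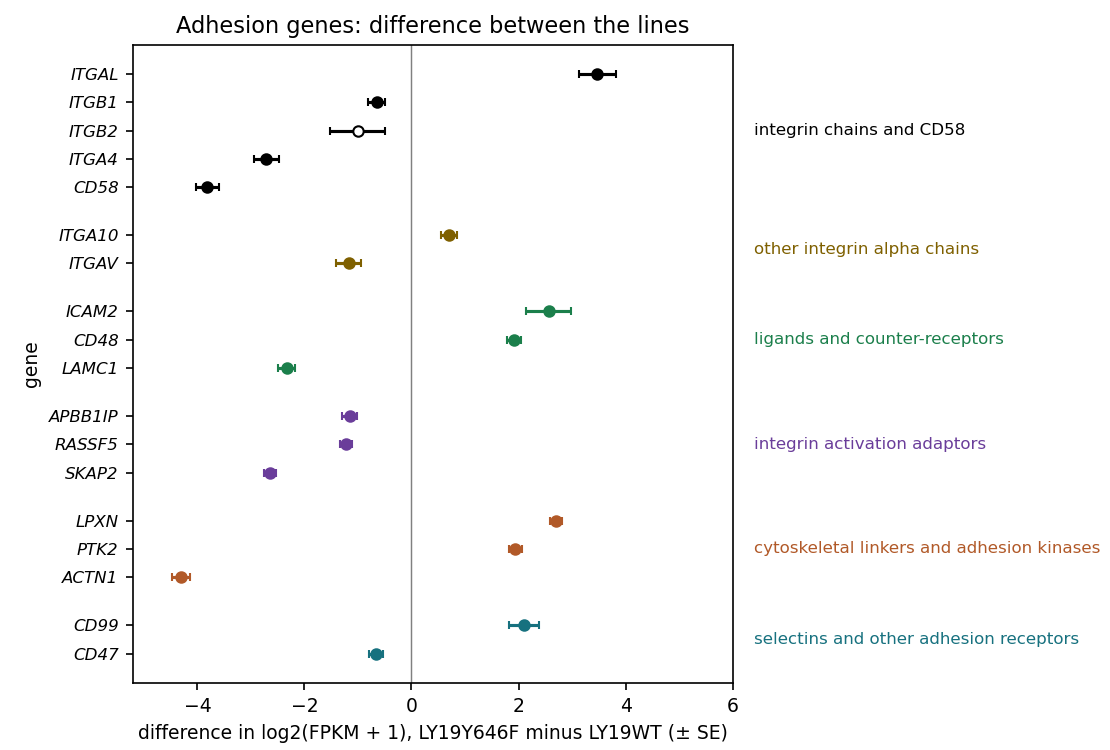
Difference in log2(FPKM + 1), LY19Y646F minus LY19WT, with its SE from limma, for tested genes with a value above 0 in each library: integrin chains and CD58 (open where not called), and called genes of each list that are named in the text, up to 4 by adjusted p. CD58, ITGA4 and ITGB1 lie below 0 with SKAP2 and ACTN1, and ITGAL lies above 0 with ICAM2, CD48, LPXN and PTK2.

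For each tested gene of the 9, the gene with the most similar values over the 6 libraries was found by the mean absolute difference in log2(FPKM + 1). It was ANXA2 for ITGA4 at 0.22, CELF2 for CD58 at 0.21, DST for ITGAL at 0.19, LEMD2 for ITGB2 at 0.21 and ZNF326 for ITGB1 at 0.07. ANXA2, which encodes annexin A2, measured 13.07, 21.5 and 20.4 FPKM in LY19Y646F, against 109, 113 and 92.0 FPKM in LY19WT. For the genes with listed zeros it was RP11-45M22.3 for ITGA6 at 0.10, ZNF558 for CD44 at 0.03 and RPS14P3 for ITGB7 at 0.35, which share those zeros or values close to 0.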

How the data were processed

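Messenger RNA of 3 LY19Y646F and 3 LY19WT libraries was prepared with a stranded kit and sequenced as single reads of 85 bases, per the labels' protocols. Reads were processed with STAR 2.5.3a, Cufflinks 2.2.1 and Cuffdiff 2.2.1 on hg19, per the submitters' processing notes. The authors deposited FPKM per gene with confidence limits, in a table per library, per the file headers. They also deposited a table of 1 FPKM value per line with a log2 fold change, per its header.

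Rows were joined by symbol. A row counted for a gene that was its only protein-coding name (GENCODE types), and genes in shared or failed rows were left out, leaving 47625 of 56584 symbols. The 10710 with a mean of at least 0.5 FPKM were tested with limma 3.58.1 (R 4.3.3) on log2(FPKM + 1), LY19Y646F minus LY19WT, two-sided, with a trend and Benjamini-Hochberg adjustment. Count models were not applied to FPKM, and since depth is unknown no counting interval is given. Differences in log2(FPKM + 1) understate the fold of low genes. The fit was tested on simulated data. There it called 41 of 100 genes changed 2-fold and 74 of 100 genes changed 4-fold. It made 7 false calls in a simulation of 10710 genes. A gene that did not pass can therefore still differ. Exact permutation tests used scipy 1.17.1 under Python 3.11.15. Coordinates are hg19, counted from 1; promoter windows are GRCh38.p14.

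The 9 genes and the lists were chosen with earlier results of these data known. The 9 were all described; of each list, up to 4 called genes with the smallest adjusted p were named, with 15 partner chains, ligands and adaptors named whatever their values. MRPL4, RP5-1086K13.1, MS4A1, SHARPIN, DOK1 and CD151 were named after their values were seen. A called gene of the lists is counted but not reported here. Alternatives were another pseudocount (0.1), no filter or 2 FPKM, quantile scaling, library weights, the replicate number as a block, other handling of merged rows, each library left out, and, chosen after seeing the data, zeros as missing.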

Additional observations from a re-analysis of the deposited data

Results flagged for a closer look

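In LY19Y646F replicate 2, where ICAM1 is listed at 0, an unnamed row that overlaps ICAM1 carries 12.06 FPKM, while no unnamed row overlaps ICAM1 in any LY19WT library. This row stands outside the comparisons, since it names no gene. Whether its fragments come from ICAM1 was not tested.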

How the results depend on the processing

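ITGA4, ITGAL and CD58 kept their direction and stayed called under each alternative that tested them. ITGA6 and CD44 did so too, but each alternative that tested them kept their LY19Y646F zeros, so their direction could not change. Of all tested genes 3563 were called, 5778 with library weights and 2701 to 4024 with a library left out. Of the 9 genes 6 were called, 5 to 8 with a library left out and 4 with zeros as missing, where ITGA6 and CD44 could not be tested. The lists had 26 calls, and 18 to 27 with a library left out. ITGB7 turned to 1.55 and ICAM1 to 0.73 with zeros as missing. The ratio of ITGB7 to ITGB1 differed by -0.06 (log2), 0.09 with quantile scaling, 2.47 with zeros as missing and -1.32 to 0.59 with a library left out. With 0.1 in place of 1 added, the ITGA6 to ITGA4 difference was -2.72 in place of 0.27, and CD58 to CD44 0.21 in place of -2.04. Those pairs hold zeros, but low values moved too: ITGAL gave 6.04 in place of 3.47 and ITGAL to ITGB2 7.18 in place of 4.47, while ITGA6 gave -5.5 in place of -2.44 and CD44 -4.64 in place of -1.77. ITGA3, ITGA10, FERMT1, TES and ACTN1 also moved by over 1.5 times, in the same direction. Same-numbered libraries deviated together with r of 0.26, 0.099 and 0.13 for replicates 1, 2 and 3, and one of these is not over 0.1, so the numbers were not taken as a pairing. Every library correlated best with its own number, with -0.178 to 0.091 between unlike numbers, which is a hint from the data and not from the design. With the replicate block 3880 genes were called, ITGB2 (adjusted p = 0.023) and TLN1 (0.024) passed and ITGA3 (0.066) did not. Precision rests on 3 libraries per line.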

Other observations

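Some adhesion genes were listed at 0 in all 6 libraries although the authors' deposited table has values for them. There SHARPIN, an inhibitor of integrin activation, has 5.77 FPKM in LY19Y646F and 11.7 FPKM in LY19WT in the authors' deposited table. DOK1, which competes with talin for the integrin tail, has 0.278 FPKM in LY19Y646F and 13.5 FPKM in LY19WT in the authors' deposited table. The tetraspanin CD151, a partner of laminin-binding integrins, has 3.22 FPKM in LY19Y646F and 3.79 FPKM in LY19WT in the authors' deposited table.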
